A study of Mus musculus with 8 samples.

Results

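The tumour necrosis factor (TNF) ligand and receptor superfamilies were measured in the polyadenylated RNA of mouse haematopoietic stem cells (HSCs) of 2 ages. Members were the gene rows of the deposited series table whose symbol is a numbered Tnfsf or Tnfrsf symbol, or Tnf, Lta, Ltb, Ltbr, Fas or Fasl. This gave 36 of 38172 gene rows, of which 14 code for ligands and 22 for receptors. They carry 37 family symbols, because Tnfsf12 and Tnfsf13 share a joined model with BC096441 and cannot be told apart. The young group was 4 months old and the old group 24 months old, both wild-type C57BL/6 mice without treatment. Bone marrow HSCs were sorted fresh as SP-KSL-CD150+: cells that efflux a dye (side population), lack lineage markers, carry Kit and Sca-1, and carry CD150, the product of Slamf1. Each age had 2 biological replicates, numbered 13 and 14, each with 2 technical libraries (8 libraries in all). Whether a replicate came from 1 mouse or a pool is not stated in the labels, so the spread behind each p-value is that of these samples alone.

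TNF ligands are mostly trimeric membrane proteins, some released by proteases, that cluster receptors on the same or a neighbouring cell. Receptors with a cytoplasmic death domain can assemble caspase-activating or necroptotic complexes, most other receptors recruit TRAF adaptors that activate NF-kB and stress kinases, and soluble or decoy receptors bind ligand without the full signal. In the bone marrow the family is known for its roles in inflammation, lymphocyte survival, osteoclast formation and the response of HSCs to inflammatory stress.

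The promoters of Tnfsf10, which codes for the death ligand TRAIL, and of Ltb, Tnf and Lta, 3 ligand genes side by side, are shown because the results below turn on the first and because the other three lie at one locus with very different RNA levels. In the build of the deposited table (mm9), Ltb lay at chr17:35331452-35333250 on the plus strand, Tnf at chr17:35336336-35338941 and Lta at chr17:35340110-35342296, both on the minus strand. The gaps were 3.1 kb between Ltb and Tnf and 1.2 kb between Tnf and Lta. The sequences are RefSeq's, on GRCm38.p6, and give the 250 bases before the annotated start, 5′ to 3′ on the gene's strand, with matches to the searched motifs in capitals. In that build they span chr3:27316827-27317076 (plus strand) for Tnfsf10, chr17:35194257-35194506 (plus) for Ltb, chr17:35202008-35202257 (minus) for Tnf and chr17:35205352-35205601 (minus) for Lta.
Tnfsf10: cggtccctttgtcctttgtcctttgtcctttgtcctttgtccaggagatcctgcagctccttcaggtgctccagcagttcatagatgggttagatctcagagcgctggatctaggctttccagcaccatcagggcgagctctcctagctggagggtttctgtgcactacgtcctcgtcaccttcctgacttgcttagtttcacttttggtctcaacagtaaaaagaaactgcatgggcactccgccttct
Ltb: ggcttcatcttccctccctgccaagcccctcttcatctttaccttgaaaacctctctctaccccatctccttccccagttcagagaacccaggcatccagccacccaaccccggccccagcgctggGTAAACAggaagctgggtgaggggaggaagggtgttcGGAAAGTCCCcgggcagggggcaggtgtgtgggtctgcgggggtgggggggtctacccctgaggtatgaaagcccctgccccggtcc
Tnf: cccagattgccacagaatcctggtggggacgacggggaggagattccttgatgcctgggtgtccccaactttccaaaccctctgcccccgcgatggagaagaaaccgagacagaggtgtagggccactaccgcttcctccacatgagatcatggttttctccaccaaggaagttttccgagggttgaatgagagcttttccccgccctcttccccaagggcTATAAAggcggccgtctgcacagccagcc
Lta: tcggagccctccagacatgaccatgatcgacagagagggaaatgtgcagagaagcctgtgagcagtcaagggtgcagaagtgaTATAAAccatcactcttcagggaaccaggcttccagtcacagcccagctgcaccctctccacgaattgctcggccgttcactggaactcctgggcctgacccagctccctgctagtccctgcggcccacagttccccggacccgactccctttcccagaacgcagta

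Motifs were searched on both strands in the window from 250 bases before to 50 bases after the start: NF-kB, AP-1 (TGANTCA), the interferon response element (GAAA and GAAA, 2 bases apart), forkhead (TGTTTAC) and the TATA box (TATAAA). The Ltb promoter held the NF-kB motif, with its first base 87 bases before the start, and the forkhead motif, read here as its reverse complement. Tnf and Lta each held a TATA box, beginning 29 and 167 bases before the start, and the Tnfsf10 window held none of the motifs. Of 34 member promoters found for 30 of the 37 symbols, 4 held the NF-kB motif (11.8%, against 8.46% of 32851 promoters). AP-1 matched 7 (20.6%, against 7.81%), the interferon response element 4 (11.8%, against 3.44%), the TATA box 6 (17.6%, against 13.6%) and forkhead 1 (2.94%, against 3.65%). These are letter matches that may overlap one another, and they do not show binding.

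Values are scaled values, that is, reads per gene after the authors applied a single multiplier to each library and rounded. Levels between genes are compared as FPKM, the same values per length of gene. The library totals on the scaled values lay between 40.7 and 44.2 M, and the reads behind them, estimated from the rounding, between 22.3 and 66.5 M. The HSC list held 10 marker genes. Some, such as Kit and Slamf1, code for markers used in the sort, so their RNA cannot serve as a check of the label. All 10 genes had higher fitted values in old cells (100%, against 56.5% of all tested genes). Among them Kit stood at 216 FPKM in young and 236 FPKM in old cells, and Slamf1 and Procr rose. The progenitor genes Flt3 and Cd34 fell, as did the erythroid genes Klf1, Slc4a1, Rhag and Ermap. Of 10 stroma genes Col1a1, Col3a1 and Sparc fell, and Runx2 led the list. Summed granulocyte markers (12 genes, led by Mpo) came to 14516 and 54929.5 in young replicates 13 and 14 and to 13903 and 28406.5 in old replicates 13 and 14. The sum is carried by Mpo and Prtn3, and 11 of the 12 genes were fitted lower in old cells (median log2 fold change -1.89, none passing): Ngp, for example, had 1112.5 and 2170 in young and 42 and 779.5 in old replicates. The summed macrophage and dendritic cell markers (11 genes, led by Lyz2) were likewise highest in young replicate 14, at 20042.5, against 9143, 8718.5 and 14599.5 in young 13, old 13 and old 14. Of 13 T and NK cell genes 8 were below the minimum for testing, and Klrb1c rose, while Nkg7 had 1281 and 2138 in young and 696 and 983 in old replicates without passing (adjusted p = 0.149, limma). Kdr, of the 7 endothelial genes, also rose, while 4 of the 7 were fitted below 0 (median log2 fold change -0.03). None of the megakaryocyte (led by Itga2b) or B cell (led by Cd79b) genes passed, and no marker gene was at 0 in all libraries. The leading genes named for a list are those with the largest scaled values over the 4 replicates, among them Ermap (erythroid), Klrb1c (T and NK cell), Tek (endothelial) and Cd34 (progenitor). Per length the leaders differed in 4 lists, where they were Hba-a1 with Hba-a2, Nkg7, Pecam1 and, for granulocytes, Prtn3. In such bulk samples, fewer cells of a type and less RNA per cell cannot be told apart.

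**Figure D1:**
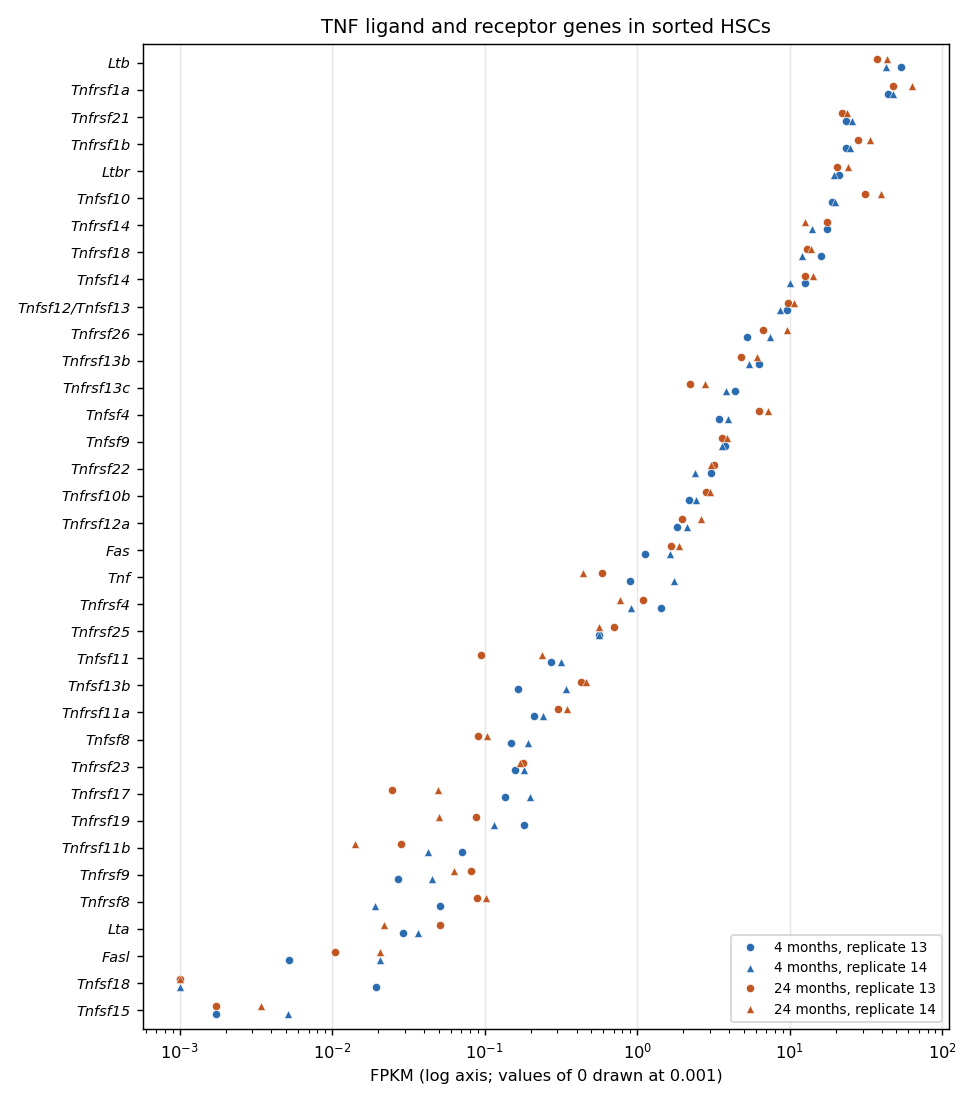
FPKM of the 36 members (log axis) in each biological replicate, ordered by the young mean, with colour for age and shape for the replicate number; points are means of 2 technical libraries and values of 0 are drawn at 0.001. Levels run from 48.1 FPKM for Ltb to 0.00343 FPKM for Tnfsf15 in young cells, and at most genes the distance between ages is small against the range across genes.

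HSCs of both ages carried RNA of a small set of family genes at high level. In young cells the order of FPKM was led by Ltb, which codes for lymphotoxin beta, at 48.1 ± 7.17 FPKM (SD, n = 2), and Tnfrsf1a, the death domain receptor TNFR1, at 46.1 ± 2.45 FPKM. These neighbours in the order did not differ beyond their spread, and they stood at percentiles 93.3 and 92.8 of the young FPKM of all tested genes. Next came Tnfrsf21 (death receptor 6) at 24.4 ± 1.6 FPKM and Tnfrsf1b (TNFR2) at 24.1 ± 1.27 FPKM, also within their spread. Ltbr, the lymphotoxin beta receptor, followed at 20.3 ± 0.971 FPKM and Tnfsf10 at 19.3 ± 0.597 FPKM. Tnfrsf14 (HVEM), Tnfrsf18 (GITR), and Tnfsf14 (LIGHT) stood at 15.8, 14.0 and 11.3 FPKM. The order in old cells began with Tnfrsf1a at 55.3 ± 11.3 FPKM, then Ltb at 40.4 ± 4.40 FPKM, Tnfsf10 at 35.5 ± 6.11 FPKM and Tnfrsf1b at 30.7 ± 3.71 FPKM. At the Ltb, Tnf and Lta locus the young levels were 48.1, 1.31 and 0.0326 FPKM.

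For the comparison of old against young cells, 28 of the 36 members had enough signal to test (10 or more on the scaled values in 2 or more replicates). All 28 reached that value in all 4 replicates, so none was admitted through 1 age. Tnfsf10 rose and no member fell with limma at a Benjamini-Hochberg adjusted p under 0.05. The single rise stands beside 2.01% of all tested genes called higher and 0.54% called lower. At an unadjusted p under 0.05 there were 5 members (17.9%, against 14% of all tested genes). Limma-voom called 0 members at an adjusted p under 0.05. Fitted changes were above 0 in 17 (60.7%, against 56.5%) and below 0 in 11, with a median of 0.14 on the log2 scale against 0.04 over all 18318 tested genes. Both old replicates lay above both young ones in 10 members (35.7%, against 24.7% of all tested genes) and below in 5 (17.9%, against 17.4%). The median size of the age difference over the tested members was 0.282, the median difference between replicates of an age 0.22 and between technical libraries 0.0808, all on the log2 scale. Over all tested genes these medians were 0.203, 0.23 and 0.0603. The age difference is between means of 2 replicates and the replicate difference between single replicates, so their sizes are not directly comparable.

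**Figure D2:**
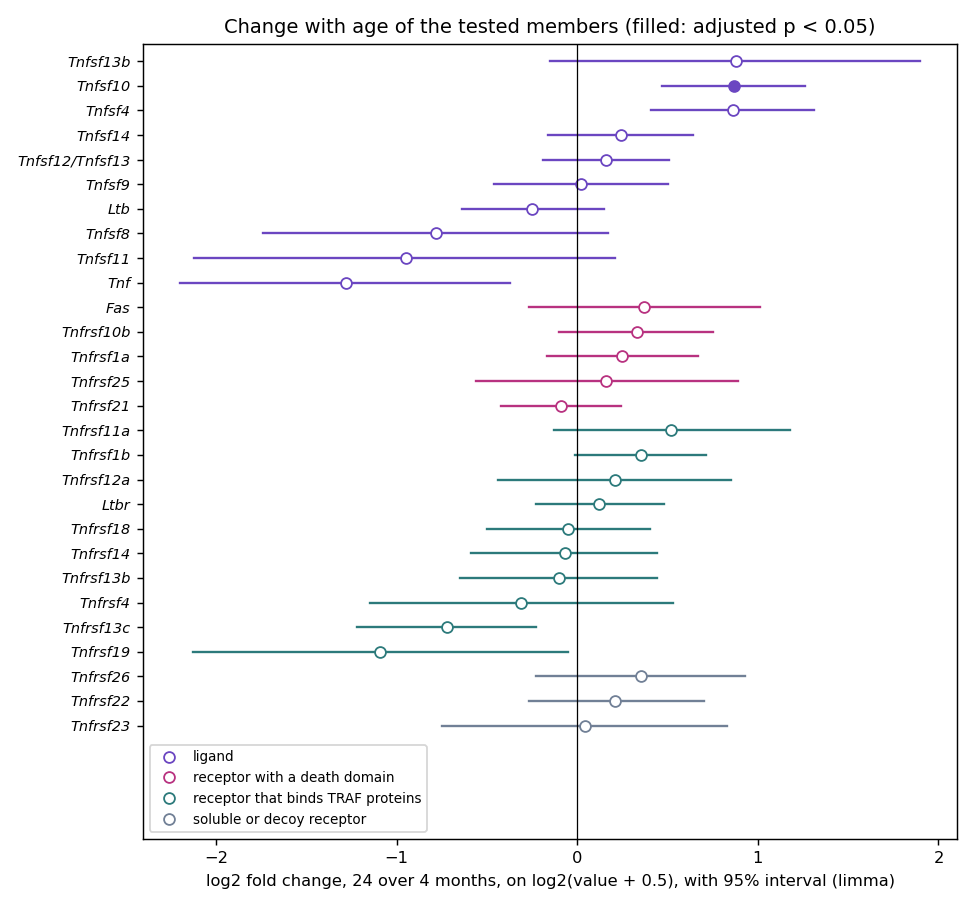
Log2 fold change of old over young cells for the 28 tested members, grouped by role, with the 95% interval from limma; the filled point is the member with an adjusted p under 0.05. Tnfsf10 alone is filled, at 0.87, and the intervals of Tnfsf4, Tnf, Tnfrsf13c and Tnfrsf19 also leave out 0.

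Among the ligands, 10 of 14 were tested. Tnfsf10 (TRAIL, chr3:27215999-27238587 in mm9, plus strand), whose product triggers cell death through the receptor of Tnfrsf10b, had scaled values of 4673.5 and 4882 in young replicates 13 and 14 and of 7706 and 9839.5 in old ones. Both old replicates lay well above both young ones, and each technical pair was close. The rise was 1.82-fold, a log2 fold change of 0.87 (SE 0.17, 95% interval 0.47 to 1.26, adjusted p = 0.0496, limma), in the same direction in both replicate numbers. The call is at the edge of the threshold. Over the 13 alternatives its log2 fold change ranged from 0.69 to 1.04 and its adjusted p from 8.4e-05 to 0.342. The call was lost with limma-voom (adjusted p = 0.0532), median-ratio factors (adjusted p = 0.0695) and other settings named at the end. It was also lost without young 13, young 14, old 13 or old 14, at log2 fold changes of 0.83, 0.90, 1.04 and 0.69. Each of these last fits leaves a single sample at 1 age, which weakens the test for every gene.

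Tnfsf4, which codes for OX40 ligand, a costimulator of T cells, had values of 275 and 318 in young and 501 and 574 in old replicates. The ages did not overlap. Its log2 fold change was 0.86 (SE 0.19, 95% interval 0.41 to 1.31), nearly that of Tnfsf10, but with an adjusted p = 0.0775 (limma) it did not pass. It lies 76.5 kb from Tnfsf18, the ligand of GITR, whose values were 0 in both old replicates and in young 14 and 2 in young 13.

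Tnf itself, the founding inflammatory cytokine, was a low gene at 1.31 FPKM in young and 0.514 FPKM in old cells. Its scaled values were 72.5 and 139.5 in young against 47.5 and 35.5 in old replicates. All young values were above all old ones, while young 14 was 1.92 times young 13, a gap wider than that between young 13 and old 13. The log2 fold change was -1.28 (SE 0.39, 95% interval -2.20 to -0.37, adjusted p = 0.18, limma), and without young 14, the replicate with the highest granulocyte and macrophage markers, it was -0.81. Without young 13 it was -1.75, without old 13 -1.49 and without old 14 -1.07, and none of these passed. The part of those markers in the Tnf values was not tested.

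Ltb had values of 2902.5 and 2349 in young and 2037 and 2377 in old replicates. The ages overlapped, and the log2 fold change was -0.25 (95% interval -0.64 to 0.15, adjusted p = 0.617, limma). Lta, which codes for lymphotoxin alpha, was not tested, at 2.0 and 2.5 in young against 3.5 and 1.5 in old replicates. An opposite-strand model that overlaps Ltb held a mean value of 171.2 against 2416.4 for Ltb.

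The remaining tested ligands did not pass. Tnfsf13b (BAFF, a B cell survival factor) had 14 and 29 in young and 36 and 39 in old replicates, with a log2 fold change of 0.88 whose interval ran from -0.15 to 1.90 (adjusted p = 0.452). Tnfsf11 (RANK ligand, the osteoclast differentiation factor) had 30.5 and 35.5 in young against 10.5 and 26.5 in old replicates, and Tnfsf8 (CD30 ligand) 16.5 and 21.5 against 10 and 11.5. Both had both old replicates below both young ones, with adjusted p = 0.477 each (limma). Tnfsf14 (LIGHT, a ligand of HVEM and of the lymphotoxin beta receptor) stood at 1156.5 and 938 in young against 1160.5 and 1303.5 in old replicates, a log2 fold change of 0.24. The joined model of Tnfsf12 (TWEAK) and Tnfsf13 (APRIL) had 1622.5 and 1458.5 against 1640 and 1798.5, a log2 fold change of 0.16. In both genes the age means differed by about as much as the replicates of an age. Tnfsf9 (4-1BB ligand) had a log2 fold change of 0.02, with values between 220 and 239.5 in all 4 replicates. An opposite-strand model overlaps Tnfsf9 at a mean value of 151.8 against its 228.0. Fasl, the Fas ligand, and Tnfsf15 had values of at most 2 in every replicate and were not tested.

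**Figure D3:**
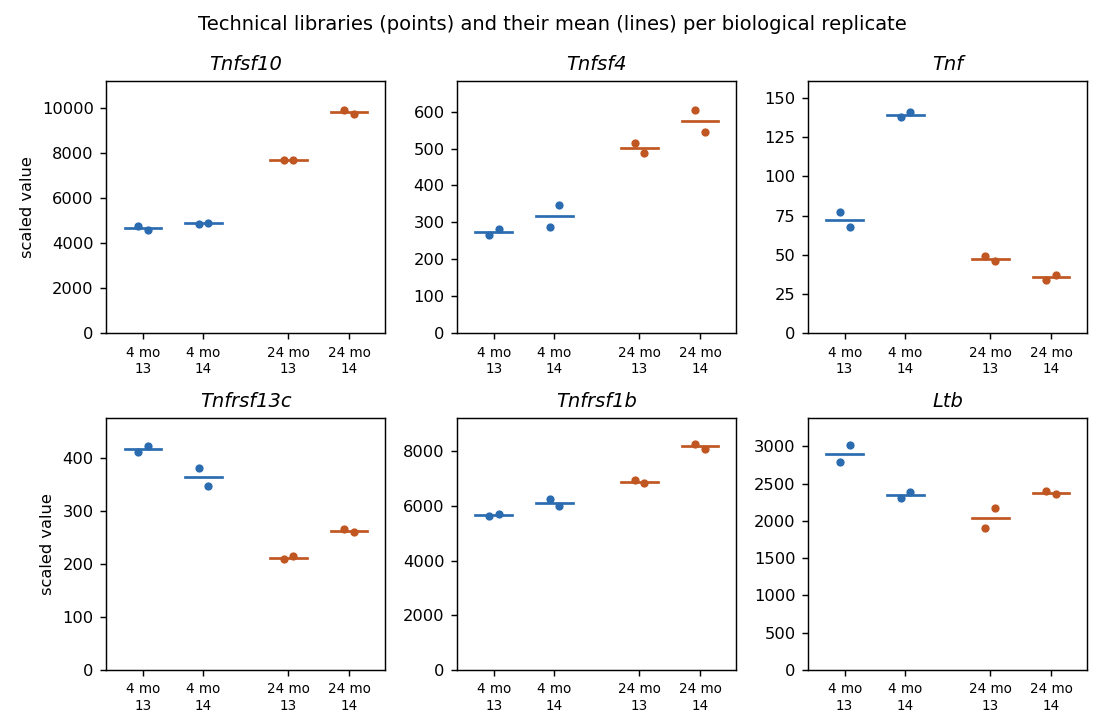
Scaled values of 6 members in each of the 8 libraries (points; blue 4 months, orange 24 months) and their mean per biological replicate (lines), each axis starting at 0. The technical pairs sit close together; for Tnf, young replicate 14 (139.5) stands far above young replicate 13 (72.5), whereas for Tnfsf10 the gap between ages exceeds the gap within them.

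All 5 death domain receptors were tested and none passed (0 at an unadjusted p under 0.05, against 14% of all tested genes). Tnfrsf1a, the main receptor of soluble TNF, had values of 4753.5 and 5125.5 in young and 5076.5 and 6785.5 in old replicates. Young 14 lay above old 13, and the log2 fold change was 0.25 (95% interval -0.17 to 0.67, adjusted p = 0.632, limma). Tnfrsf10b, the only mouse TRAIL receptor with a death domain, had 348 and 384.5 in young and 445.5 and 472 in old replicates. The ages did not overlap, but the log2 fold change of 0.33 (95% interval -0.10 to 0.75, adjusted p = 0.51) did not pass. The receptor thus stood at 2.31 FPKM in young and 2.89 FPKM in old cells beside its ligand Tnfsf10 at 19.3 and 35.5 FPKM. Fas, which triggers caspase-dependent death, had 101.5 and 148 in young and 149 and 168.5 in old replicates, with young 14 just below old 13 (log2 fold change 0.37, 95% interval -0.27 to 1.01). Tnfrsf21 had 4207 and 4615.5 against 3993.5 and 4302, which overlap, and an interval of -0.42 to 0.24 around -0.09. Tnfrsf25 (death receptor 3) was at 44.5 in 3 of the 4 replicates and at 56 in old 13.

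Of the 13 receptors that bind TRAF proteins 10 were tested and none passed. The unadjusted p was under 0.05 in 2 (20%, against 14% of all tested genes). Tnfrsf1b, the receptor that prefers membrane-bound TNF, had 5676 and 6118 in young and 6895 and 8181 in old replicates. The old values were all above the young ones. Its log2 fold change was 0.35 (SE 0.15, 95% interval -0.01 to 0.71, adjusted p = 0.38, limma).

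Tnfrsf13c, which codes for the BAFF receptor of B cells, had 417.5 and 365 in young and 212 and 263.5 in old replicates. Every old value was below every young one, with a log2 fold change of -0.72 (SE 0.21, 95% interval -1.22 to -0.23) and an adjusted p = 0.165 (limma). Beside it, 6 of the 9 tested B cell markers had fitted values below 0 and none passed. The summed B cell list was 1197.5 and 1276.5 in young against 1332.5 and 1277.5 in old replicates, mostly Cd79b, and its part in this result was not tested. The other BAFF and APRIL receptors were Tnfrsf13b (TACI), at 234 and 201 in young against 179.5 and 226.5 in old replicates, and Tnfrsf17 (BCMA), at 5.5 and 8.0 against 1.0 and 2.0. Tnfrsf13b overlapped between ages and Tnfrsf17 was too low to test.

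Tnfrsf19 (TROY) was low, at 43 and 27.5 in young against 21 and 12 in old replicates. The ages did not overlap, and the log2 fold change of -1.09 had an interval of -2.13 to -0.05 (adjusted p = 0.327). Tnfrsf11a (RANK) had 52.5 and 60.5 in young and 76 and 87 in old replicates, a log2 fold change of 0.52 (adjusted p = 0.492, limma). The old values were above the young ones in RANK, while its ligand Tnfsf11 had old values below the young ones, and neither passed. Ltbr, the receptor of membrane lymphotoxin, had 2184.5 and 2041.5 against 2132 and 2486.5, with an interval of -0.23 to 0.48. Tnfrsf14 (HVEM) had 774.5 and 619.5 against 773.5 and 559.5 and Tnfrsf18 (GITR) 795.5 and 607.5 against 651 and 692, so in both the replicates of 1 age differed more than the age means. Tnfrsf4 (OX40, the receptor for the Tnfsf4 product) had 82 and 52 in young and 62.5 and 44 in old replicates. Tnfrsf12a (the TWEAK receptor Fn14) had 87 and 102.5 against 95 and 125. Its model overlaps the opposite-strand gene Hcfc1r1, whose mean value was 1144.8 against 102.4, and without a statement on strand in the sources used here the reads of the pair cannot be told apart. The costimulatory receptor gene Tnfrsf9 (4-1BB), at 3.0 and 5.0 against 9.0 and 7.0, and Tnfrsf8 (CD30), at 4.0 and 1.5 against 7.0 and 8.0, were not tested.

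The genes grouped here as soluble and decoy receptors are Tnfrsf11b (osteoprotegerin, which binds RANK ligand) and the clustered mouse genes Tnfrsf22, Tnfrsf23 and Tnfrsf26. On chromosome 7 the gap is 8.9 kb between Tnfrsf26 and Tnfrsf22 and 16.2 kb between Tnfrsf22 and Tnfrsf23. Tnfrsf11b was at 10 and 6.0 in young against 4.0 and 2.0 in old replicates and was not tested. Tnfrsf26 had 784.5 and 1108.5 in young and 984 and 1431 in old replicates, overlapping between ages, with replicate 14 the higher at each age. Tnfrsf22 had 345.5 and 271 against 363 and 346, and Tnfrsf23 26 and 29.5 against 29 and 28. None passed (adjusted p = 0.629, 0.744 and 0.979, limma). Against 14% of all tested genes, 0 of them had an unadjusted p under 0.05. These are related copies, and reads that they share may have been split between them, so their values are uncertain.

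The authors' deposited table gives an FDR for all 36 members and marks more of them. There, in the authors' deposited table, the 3 members higher in old cells at an FDR under 0.05 are Tnfsf10 (log2 fold change 0.85, FDR 6.23e-11), Tnfsf4 (0.83, 1.11e-06) and Tnfrsf1b (0.32, 0.0443). Another 3 are lower in the authors' deposited table: Tnf (-1.38, 2.8e-07), Tnfrsf13c (-0.75, 4.63e-05) and Tnfrsf19 (-1.12, 0.0186). Over the 22284 genes with an FDR there, 7.24% are higher and 7% lower by the same rule. Which libraries entered that comparison as replicates is not stated in the table.

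Around the receptors, 105 genes of 6 signalling lists were matched and 95 tested. With limma 3 rose (Tnip3, Bcl3 and Timp3) and 1 fell (Vcam1), beside the 2.01% and 0.54% of all tested genes called in each direction. At an unadjusted p under 0.05 there were 14 (14.7%, against 14% of all tested genes). The median log2 fold change was -0.05, against 0.04 over all tested genes. Fitted changes were above 0 in 35 (36.8%, against 56.5% of all tested genes) and below 0 in 60. Both old replicates were above both young ones in 14 genes (14.7%) and below in 24 (25.3%), where all tested genes gave 24.7% and 17.4%.

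**Figure D4:**
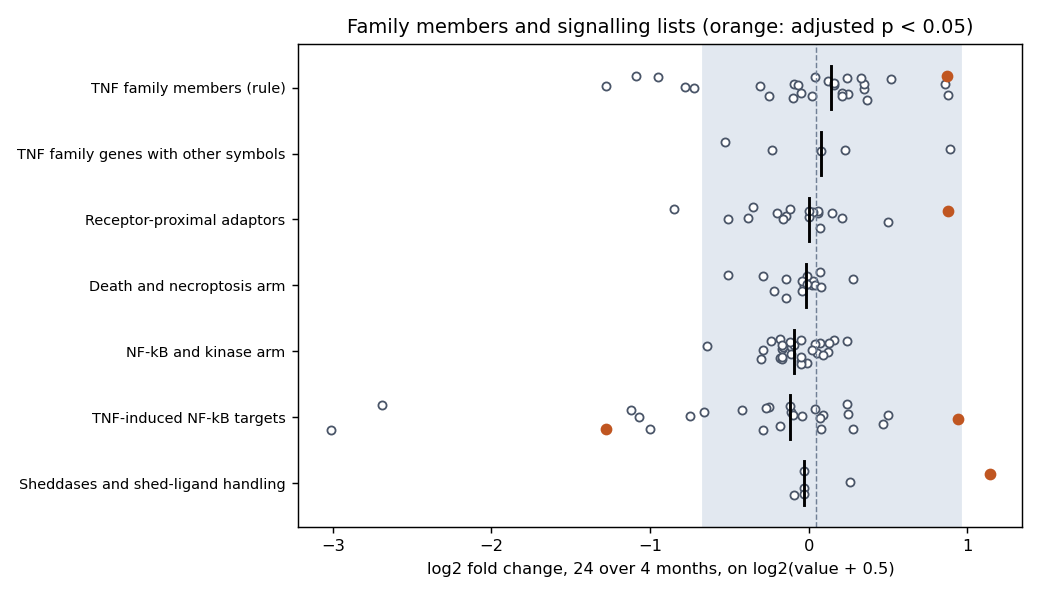
Log2 fold changes of old over young cells for each tested gene of the family and of 6 signalling lists (points; orange for an adjusted p under 0.05), with the median of each list (black bar); the shaded band spans the 5th to 95th percentile of all tested genes (-0.66 to 0.96) and the dashed line is their median (0.04). The list medians lie between -0.12 and 0.14, and at least 1 gene passed in 4 of the 7 rows.

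Of 9 family genes with other symbols, 5 were tested and none passed. The unadjusted p was under 0.05 in 2 (40%, against 14% of all tested genes). Eda2r, the receptor of ectodysplasin A2, had 200.5 and 219 in young and 358 and 422 in old replicates (log2 fold change 0.89, adjusted p = 0.0821). Relt had 1451.5 and 1354.5 against 923.5 and 1024.5 (-0.53, adjusted p = 0.157), and the ages of neither gene overlapped. Cd27, the receptor of CD70 and at 68.2 FPKM in young cells above every member, had 5739.5 and 4964 against 4384 and 4702.5 (-0.23, adjusted p = 0.583). Its ligand gene Cd70 was listed at 0 in all libraries.

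All 18 receptor-proximal adaptors were tested, and 1 rose (3 at an unadjusted p under 0.05, 16.7% against 14% of all tested genes). Tnip3, which binds the ubiquitin-editing enzyme A20 and restrains NF-kB, had 2264 and 1897.5 in young and 3591 and 4030.5 in old replicates, with an estimated log2 fold change of 0.88 (SE 0.16, limma adjusted p = 0.0381). Both old values were far above both young ones. Traf5 had 336.5 and 322 against 234 and 227.5 (-0.51, adjusted p = 0.282) and Traf1 599 and 465 against 825 and 676 (0.50, adjusted p = 0.325), again without overlap and without passing.

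None of the 16 death and necroptosis genes passed (1 at an unadjusted p under 0.05, 6.25% against 14% of all tested genes). Birc5 (survivin, which also acts in cell division) had the smallest p-value. Its values were 2173.5 and 2052.5 in young against 1547.5 and 1411.5 in old replicates (-0.51, adjusted p = 0.146, limma). Bid, which links death receptors to mitochondria, had 1687 and 1752 against 1319 and 1492.5 (adjusted p = 0.457), and the caspase inhibitor Xiap overlapped between ages (adjusted p = 0.62). Casp8, Ripk3 and Mlkl, the executors of the caspase and necroptotic branches, stood at 32.5, 36.2 and 18.1 FPKM in young and 32.9, 35.9 and 15.6 FPKM in old cells.

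None of the 29 NF-kB and kinase genes passed either (1 at an unadjusted p under 0.05, 3.45% against 14% of all tested genes). Rel, the c-Rel subunit, had 572 and 547 in young and 317 and 403.5 in old replicates (-0.64, adjusted p = 0.18), without overlap. Nfkbia, the inhibitor of NF-kB, had 3607 and 3107 against 3787 and 4135.5 (0.24, adjusted p = 0.568), and Relb 552 and 410 against 403.5 and 373 (-0.29, adjusted p = 0.631).

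Of 33 genes known to be induced by TNF through NF-kB, 27 were tested, and 1 rose and 1 fell. The unadjusted p was under 0.05 in 7 (25.9%, against 14% of all tested genes), and the median log2 fold change was -0.12. Bcl3, an atypical NF-kB regulator, had 541.5 and 548 in young and 1049.5 and 1044 in old replicates (0.94, SE 0.15, adjusted p = 0.0283, limma), with the replicates of each age close together. Vcam1, an adhesion molecule of stroma, endothelium and blood cells, had 666 and 910 against 316 and 325 (-1.28, SE 0.21, adjusted p = 0.0274). The summed stroma markers were 12829 and 13381 in young against 7513 and 6831 in old replicates, with all 9 tested stroma genes fitted below 0, and their part in the Vcam1 value was not tested. Cxcl2, a neutrophil chemokine, had 12.5 and 57.5 in young and 4.0 and 3.5 in old replicates and did not pass (adjusted p = 0.132). Like Tnf it was highest in young 14. Over the whole list replicate 14 was above replicate 13 at both ages, by a median log2 difference of 0.22 in young and 0.24 in old cells.

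All 6 genes of the list of sheddases and shed-ligand handling were tested. The 1 that rose, Timp3, codes for an inhibitor and not for a sheddase. The unadjusted p was under 0.05 in 1 (16.7%, against 14% of all tested genes). Timp3, the inhibitor of the TNF-releasing protease ADAM17, had 1159 and 1607.5 in young and 2689.5 and 3384 in old replicates, with an estimated log2 fold change of 1.14 (SE 0.20, limma adjusted p = 0.0394). Both old replicates exceeded both young ones. Adam10 (14023.5 and 16850 against 15917 and 21274) and Rhbdf1 (929.5 and 617.5 against 852.5 and 593.5) overlapped between ages (adjusted p = 0.67 and 0.927), as did Adam17 itself at 17.0 FPKM in young and 16.7 FPKM in old cells.

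Leaving out 1 replicate leaves a single sample at 1 age and weakens the test for every gene. A lost call in these fits thus cannot show that a signalling gene rested on 1 replicate. With 1 replicate left out in turn (young 13, young 14, old 13 or old 14), the adjusted p was 0.15 to 0.243 for Bcl3, 0.119 to 0.406 for Tnip3, 0.056 to 0.359 for Timp3 and 0.0407 to 0.294 for Vcam1. Of these, only Vcam1 without young 13 (0.0407) still passed.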

How the data were processed

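PolyA-selected RNA was made into TruSeq libraries, per the labels' protocols. The submitters' processing notes name the build mm9 and, without its version or part, DESeq. The tools for alignment and counting were not given in the sources used here. Columns named like counts are scores that the authors made by multiplying reads by 1 factor per library (0.617 to 1.839, estimated) and rounding. The FPKM the authors deposited is that score times 1 constant per gene. The authors deposited 1 log2 fold change and 1 FDR (adjusted p-value) per gene.

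Technical pairs were averaged, and log2(value + 0.5) was fitted on age in limma 3.58.1 (R 4.3.3) with a trended prior, two-sided tests and Benjamini-Hochberg adjustment over 18318 of 38172 genes (467 called, 368 higher and 99 lower). Fold changes of low genes are understated by the pseudocount. The old against young comparison was simulated 5 times on these 18318 genes, with 200 genes changed and replicates varying independently. In these simulations 23.9% of 2-fold, 70.4% of 4-fold and 86.4% of 8-fold changes were called, and 0.032% of unchanged genes. The data had 467 calls and deviations that correlated between same-numbered replicates (r = 0.54), so their own shares may differ. Members and lists were chosen with earlier results of these data known. All members are named or counted; of the signalling lists, the genes with an adjusted p under 0.05 and the 3 with the smallest p; of the marker lists, the genes with an adjusted p under 0.05 and the most abundant by scaled value. Outside the rule, Casp8, Ripk3, Mlkl, Cd70 and Adam17 were added once values had been seen; 1 marker gene is not reported here. 3 older symbols of the NF-kB list (Map3k7ip1, Map3k7ip2 and Map3k7ip3) matched no gene.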

Additional observations from a re-analysis of the deposited data

How the results depend on the processing

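Over all genes the main setting called 467. This moved to 0 without a filter on low values (2943 at an unadjusted p under 0.05), to 293 with the lower-numbered technical libraries alone, and to between 0 and 274 with 1 replicate left out (274 without young 13, 187 without young 14, and 0 without old 13 or old 14, where 3669 and 1933 had an unadjusted p under 0.05). The count of called members moved from 1 to 0 without the filter, with a mean of at least 1 FPKM at either age, with median-ratio factors, with limma-voom, with the lower-numbered or the higher-numbered technical libraries alone, and with each replicate left out in turn. The signalling count moved from 4 to 0 without the filter, to 2 with the higher-numbered technical libraries and to between 0 and 2 with 1 replicate left out. Tnfsf10 kept a positive log2 fold change in all of these settings; why it lost the call was not tested.

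With the replicate number as a replicate block, 2766 of 18318 tested genes were called, 1698 higher and 1068 lower. Among them were 5 of 28 tested members (Tnfsf10 and Tnfsf4 higher, and Tnf, Tnfrsf13c and Tnfrsf19 lower) and 15 of 95 tested signalling genes. Both fractions were near that of all tested genes. The labels do not say what samples of 1 number share, and there are only 2 numbers, hence 2 pairs. Deviations of young 13 and old 13 from their age means correlated across 18318 genes with r = 0.54, but with 2 pairs and no label for what they share the numbers were not used as pairs in the reported test.

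The sign turned in 15 of 357 member values, all of them in 6 members with small changes that did not pass. Tnfrsf23 went to -0.0050 with median-ratio factors, -0.12 with quantile normalization, -0.07 with the lower-numbered libraries and -0.05 without young 13. Tnfsf9 went to -0.02 with median-ratio factors, -0.12 with quantile normalization, -0.02 with the higher-numbered libraries, -0.02 without young 14 and -0.04 without old 14. With 1 replicate left out, Tnfrsf13b ranged from -0.27 to 0.06, Tnfrsf14 from -0.31 to 0.16, Tnfrsf18 from -0.24 to 0.14, Tnfrsf23 from -0.05 to 0.13, Tnfrsf4 from -0.64 to 0.01 and Tnfsf9 from -0.04 to 0.08. Without young 13, Tnfrsf13b went to 0.0046, Tnfrsf14 to 0.09, Tnfrsf18 to 0.14 and Tnfrsf4 to 0.01; Tnfrsf13b went to 0.06 without old 13 and Tnfrsf14 to 0.16 without old 14. With n = 2 per age and 200 genes changed, 23.9% of simulated 2-fold changes were called.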
